A study of Mus musculus with 3 samples.

Results

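Genes that mark plasmacytoid dendritic cells were followed inside and outside those cells: Siglech, Ccr9, Ly6d, Cox6a2, Pacsin1, Klk1, Atp1b1, Lair1, Cd300c and Ly6c2. They are 10 of the 32285 genes in the count tables. They were chosen by symbol, with earlier results of these data known, and the higher Cox6a2 level of progenitors at 50 µM glutamine was part of that choice. All 10 were measured in plasmacytoid cells and 8 in the other 3 gated classes, where Pacsin1 and Klk1 stayed under 5 CPM (a gene's UMIs per 1e6 UMIs of a class) in every library.

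The libraries came from dendritic cells of wild-type C57BL/6 mice, grown in vitro with the growth factor FLT3L. There were 3 libraries, 1 for each condition: low glutamine (50 µM), DON (1 µM, a glutamine antagonist, in 2 mM glutamine) and control (2 mM glutamine). The labels call the cells conventional dendritic cells, although cultures of this kind also hold plasmacytoid cells and their precursors. How many mice the cells came from is not given in the sources used here. No condition was repeated, so no difference between libraries could be tested, and no p-value is given. Intervals are 95% intervals for counting error only (exact Poisson for CPM, exact Clopper-Pearson for shares) and leave out variation between cultures.

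Plasmacytoid dendritic cells (pDC) sense viral nucleic acids through endosomal Toll-like receptors and release type I interferon. Their identity depends on the transcription factor TCF4, also called E2-2, which binds E-box motifs. Mouse pDC carry the lectin Siglec-H, signal through it with the adaptor DAP12 (Tyrobp), and gain the chemokine receptor CCR9 as they mature. Ly6d marks lymphoid-type precursors and pDC, and Ly6c2 is shared by pDC, monocytes and granulocyte precursors.

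Cox6a2 is the member with the largest difference outside pDC, so its sequence is shown with that of Cox6a1, the form of the same cytochrome c oxidase subunit used by most tissues. Cox6a2 is the form of heart and skeletal muscle. The GENCODE coding sequence of Cox6a2 (gene at chr7:128205435-128206387, minus strand, GRCm38) has 291 bases, and that of Cox6a1 (gene at chr5:115345642-115348981, minus strand) has 336. Aligned over 287 bases, they were 66.6% identical. The last 240 bases are shown, positions 52 to 291 of Cox6a2 and 97 to 336 of Cox6a1, and capitals mark bases that differ or have no partner.
Cox6a2: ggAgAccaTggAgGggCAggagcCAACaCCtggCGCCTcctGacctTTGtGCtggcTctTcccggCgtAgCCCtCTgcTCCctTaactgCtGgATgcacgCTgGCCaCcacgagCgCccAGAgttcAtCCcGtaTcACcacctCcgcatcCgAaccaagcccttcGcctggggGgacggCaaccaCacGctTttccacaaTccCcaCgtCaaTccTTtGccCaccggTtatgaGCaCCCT
Cox6a1: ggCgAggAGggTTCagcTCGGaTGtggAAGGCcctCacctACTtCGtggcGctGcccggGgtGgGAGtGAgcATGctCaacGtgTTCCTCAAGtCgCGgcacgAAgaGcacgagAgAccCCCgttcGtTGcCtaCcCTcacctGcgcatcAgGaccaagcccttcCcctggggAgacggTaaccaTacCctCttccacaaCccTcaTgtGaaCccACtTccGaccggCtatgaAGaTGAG
None of the 50-base windows in the last 500 bases of the Cox6a2 transcript, where 3' tags arise, occurs in another gene.

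The promoters of Siglech and Ccr9 are shown because both genes are among the leading genes of the pDC class, whose gate includes Tcf4. They are the 250 bases before the start site in RefSeq (GRCm38.p6), chr7:55767934-55768183 and chr9:123766961-123767210, both on the plus strand. Capitals mark matches to CAGNTG or its reverse complement CANCTG, the only E-box letters searched for, so any other E-box is unmarked.
Siglech: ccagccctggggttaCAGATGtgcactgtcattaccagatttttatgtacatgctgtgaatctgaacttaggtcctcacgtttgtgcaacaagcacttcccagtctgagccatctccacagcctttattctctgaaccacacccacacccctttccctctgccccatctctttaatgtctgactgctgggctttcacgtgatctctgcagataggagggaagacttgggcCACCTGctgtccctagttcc
Ccr9: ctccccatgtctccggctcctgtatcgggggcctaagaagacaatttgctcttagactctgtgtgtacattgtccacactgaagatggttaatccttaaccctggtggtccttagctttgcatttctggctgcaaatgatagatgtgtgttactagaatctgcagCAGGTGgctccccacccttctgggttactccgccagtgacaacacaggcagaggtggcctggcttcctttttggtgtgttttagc
Siglech has 2 matches and Ccr9 has 1. Of the 8 members with a promoter entry, 5 hold a match, and 44.5% of all 27025 promoters do, so a match is a description of these letters only. Cox6a2 and Ly6d have no entry in the table used.

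The classes were set without the 10 members, from summed UMIs of other marker genes in each cell. The pDC gate (Tcf4, Runx2, Spib, Bcl11a and 7 others) took 2854 cells at low glutamine, 2866 with DON and 2917 in control. The progenitor gate (Cd34, Kit, Mpo and 7 others) took 874, 235 and 246 cells in that order. Cycling cells that passed no lineage gate numbered 1486, 1181 and 811, and type 2 conventional dendritic cells (cDC2) 1277, 777 and 1159. All 11 pDC markers were detected in the pDC class of each library, and the 10 genes that led it included 6 members. A gate is a range of a score: 289, 322 and 248 pDC lay within 20% above the pDC threshold, and 395, 393 and 322 other cells within 20% below it. The libraries held 87611658 to 92002827 UMIs, the cells used had medians of 6631.5 to 7950.5 UMIs, and 20 to 31 barcodes were shared between pairs of libraries.

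**Figure D1:**
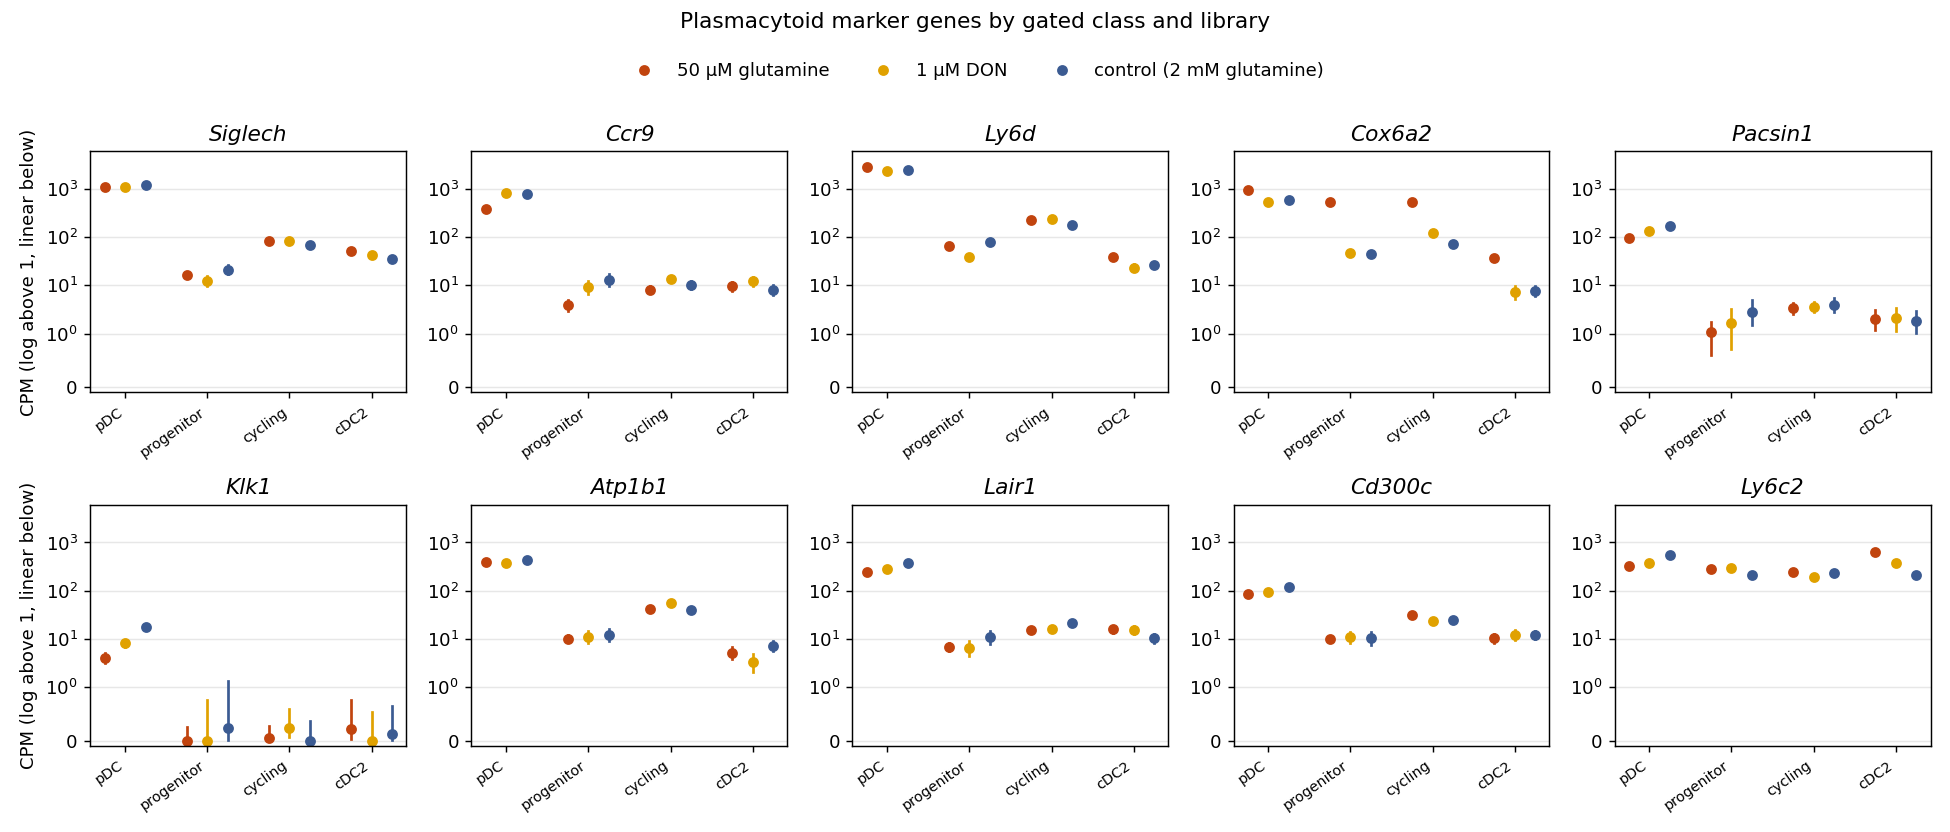
Each panel plots the level of a member, in CPM, in 4 gated classes, with low glutamine (red), DON (yellow) and control (blue) side by side and lines for the 95% Poisson interval. The axis is logarithmic above 1 CPM and linear below. Cox6a2 at low glutamine lies at 535 CPM in progenitors and 548 CPM in cycling cells, against 45.8 and 71.2 CPM in control.

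Cox6a2 stood apart among the members outside pDC. In progenitor-gated cells it was at 535 CPM at low glutamine (interval 524 to 547), 47.3 CPM with DON (41.3 to 53.8) and 45.8 CPM in control (39.6 to 52.8). The DON and control intervals overlap, and the low-glutamine level lies above both. The low-glutamine level was 11.7 times that of control (interval 10.1 to 13.6), a log2 ratio of 3.41 after 5 CPM was added to each level. This was the highest ratio among the 9156 genes measured in progenitors. With DON the log2 ratio was 0.04. The next genes in order at low glutamine were Atf5 (2.72), Asns (2.61), Cth (2.01), Slc7a5 (1.86) and Pf4 (1.77). Asns makes asparagine in a reaction that uses glutamine, and Slc7a5 carries large neutral amino acids into cells.

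The difference was spread over many cells. Each cell was thinned to 2000 UMIs, because progenitors were sequenced to medians of 16550, 19650 and 16496 UMIs at low glutamine, with DON and in control. A Cox6a2 UMI was then found in 421 of 874 low-glutamine progenitors (48.2%, interval 44.8 to 51.5%), in 17 of 234 with DON (7.26%, 4.29 to 11.4%) and in 14 of 246 in control (5.69%, 3.15 to 9.36%). Without thinning the shares were 79.4%, 31.9% and 24.0%. Type 1 conventional dendritic cells (cDC1-gated) served as a comparison class, and that they lack these genes was assumed and not tested. At medians of 8771.5, 10801 and 9394 UMIs, their thinned shares were 6.20%, 1.06% and 1.20%. Progenitors of each library therefore lay above the level of that class.

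**Figure D2:**
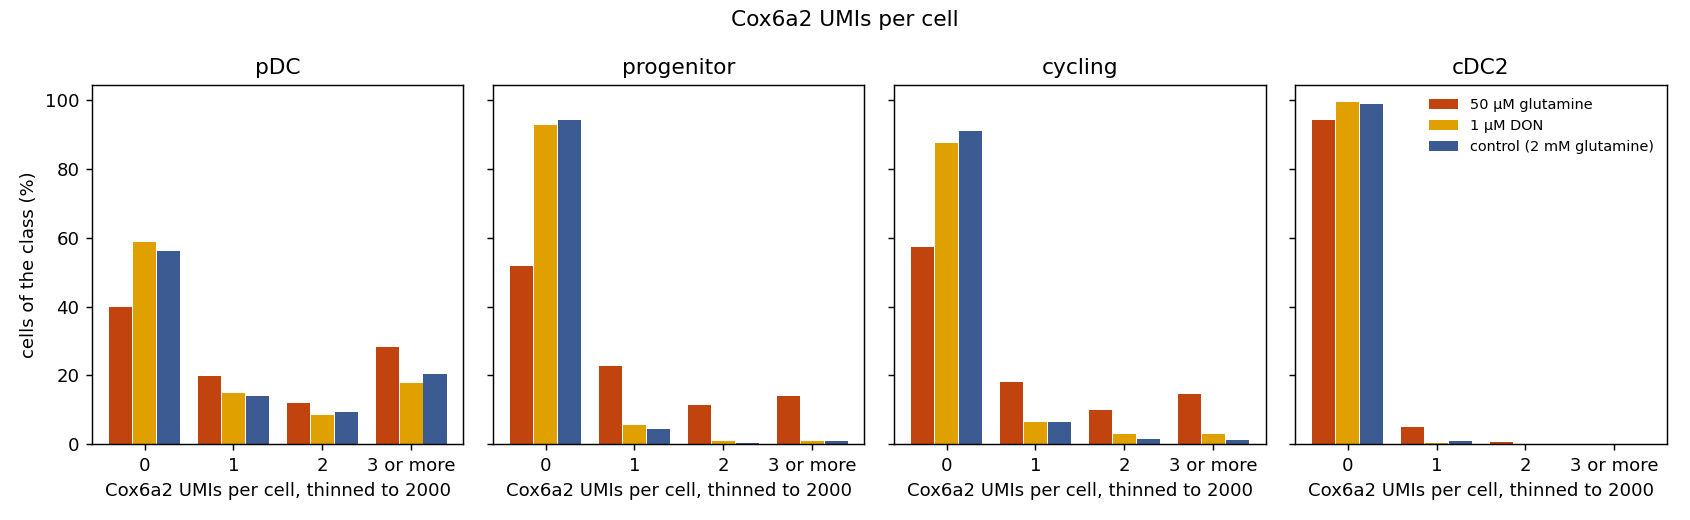
Bars give the percentage of cells with 0, 1, 2 or at least 3 Cox6a2 UMIs after thinning to 2000 UMIs, in 4 classes, for low glutamine (red), DON (yellow) and control (blue). In low-glutamine progenitors 14.0% of cells held at least 3, against 0.855% with DON and 0.813% in control.

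Within progenitors the low-glutamine level was the highest in each subdivision that was made. Progenitors with an Mpo UMI (myeloperoxidase, a granulocyte and monocyte precursor product) had 467 CPM of Cox6a2 at low glutamine, 27.2 CPM with DON and 34.0 CPM in control. Those without one had 644, 68.1 and 57.0 CPM. Progenitors below the cell cycle gate had 509, 57.7 and 46.2 CPM, and those at or above it 544, 45.4 and 45.7 CPM. In the 2 expression clusters that held most progenitors, led by Gem, Asns and Ctsg and by Cdca7, Mpo and Igfbp4, the levels were 594, 42.8 and 52.5 CPM and 503, 55.3 and 33.8 CPM. Leaving out every progenitor with a UMI of a pDC gate gene kept only 21, 4 and 4 cells, with 100, 0 and 9 Cox6a2 UMIs, and the low-glutamine ratio was then 1.21.

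Progenitors with and without Cox6a2 were compared for the other members. Among low-glutamine progenitors with a Cox6a2 UMI, 3.33% had a Siglech UMI, against 4.19% of those without one, and for Ly6d the shares were 6.89% and 5.30%. These pairs of intervals overlap. Cells with Cox6a2 had Ly6c2 less often (21.6%, interval 17.8 to 25.9%) than cells without it (33.1%, 28.8 to 37.7%). Mpo (23.0% and 35.8%) and the stem and progenitor antigen Cd34 (17.3% and 27.6%) were also found in a smaller share of the cells with Cox6a2. These cells are of 1 library, so the shares describe that library. The summed pDC marker list was at 403, 411 and 386 CPM in progenitors at low glutamine, with DON and in control, with 11, 10 and 11 of 11 genes detected.

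No other measured oxidase subunit passed 1.5-fold in progenitors. Cox6a1 was at 256 CPM in low-glutamine progenitors, 292 CPM with DON and 279 CPM in control. Of 15 nuclear-encoded subunits listed, 12 were measured in progenitors, and 0 were 1.5-fold higher or lower at low glutamine (median log2 ratio -0.09, against 0.06 over all genes), where 2.41% of all genes were higher and 1.17% lower.

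Cycling cells that passed no lineage gate also had most Cox6a2 at low glutamine. Cox6a2 was at 548 CPM (interval 537 to 558) at low glutamine, 120 CPM (115 to 125) with DON and 71.2 CPM (66.1 to 76.6) in control, and the 3 intervals are apart. The log2 ratios to control were 2.86 at low glutamine, second to Asns (2.93) among 9211 genes, and 0.71 with DON, the fifth highest of 8994. The DON ratio was 0.35 with a stricter gate and 0.3 in Leiden clusters, under 1.5-fold. A Cox6a2 UMI was found in 42.6%, 12.5% and 9.05% of thinned cells. Different clusters made up this class: the progenitor-type cluster led by Gem and Asns held 46.2% of it at low glutamine, 23.5% with DON and 22.9% in control. Within that cluster Cox6a2 was at 697, 153 and 108 CPM, and within a mitotic cluster led by Nusap1 and Prc1 it was at 78.6, 10.7 and 6.94 CPM. In cells that no gate took, Cox6a2 was at 429, 48.0 and 48.5 CPM.

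In cDC2 the level was low. Cox6a2 was at 37.8 CPM at low glutamine, 7.21 CPM with DON and 7.67 CPM in control, log2 ratios of 1.76 and -0.05. The thinned share at low glutamine, 5.74% of cDC2, was no higher than the 6.20% of cDC1, whose Cox6a2 levels were 33.3, 9.89 and 4.19 CPM. The cDC1 level at low glutamine was itself 7.94 times that of control. Smaller classes also had more Cox6a2 at low glutamine than in control, on at most 12 control UMIs. The levels were 132 against 13.7 CPM in neutrophils and 113 against 12.6 CPM in T, NK and innate lymphoid cells. Mature dendritic cells had 29.1 CPM at low glutamine, 52.8 CPM with DON and 3.92 CPM in control. In cells past more than 1 gate and assigned to none it was lower, at 202 against 312 CPM. Whether the cDC2 value and these values are background RNA or expression was not tested.

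The ratio of Cox6a2 to Siglech UMIs was also taken in each class. At low glutamine there were 32.4 Cox6a2 UMIs per Siglech UMI in progenitors, 6.52 in cycling cells, 1.45 in cDC1, 0.736 in cDC2 and 0.84 in pDC. With DON the values for those classes were 3.8, 1.44, 0.767, 0.167 and 0.501, and in control 2.16, 1.01, 0.387, 0.218 and 0.489.

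**Figure D3:**
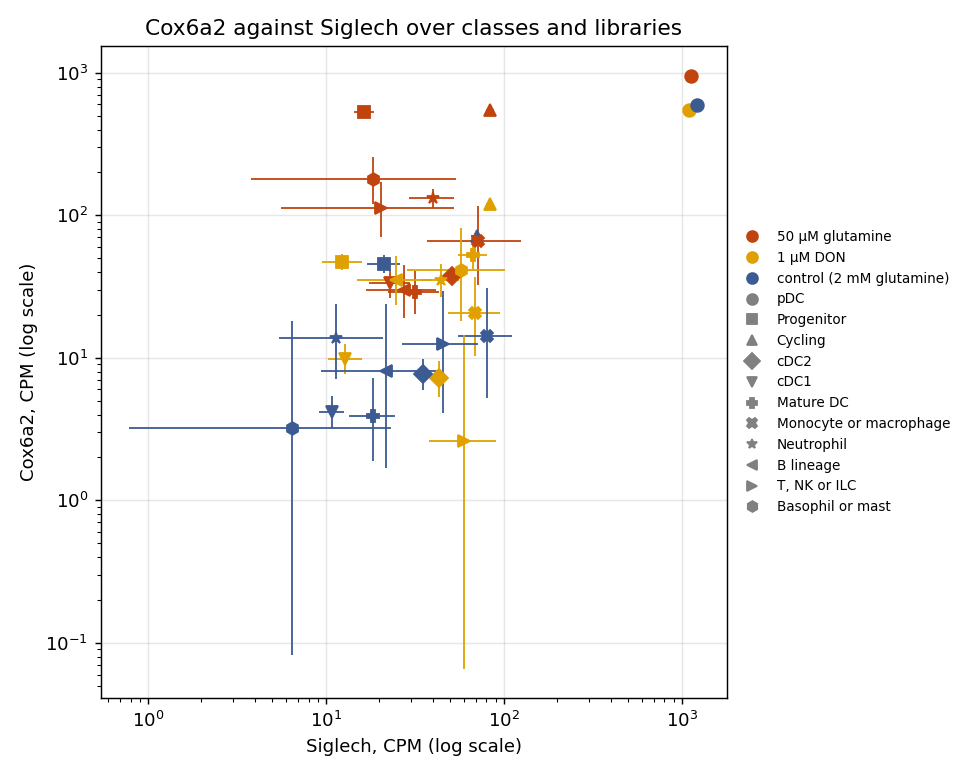
Each point is a cell class (shape) in a library (colour), with Siglech on the x axis and Cox6a2 on the y axis, both in CPM on log scales, and lines for 95% Poisson intervals. Low-glutamine progenitors and cycling cells reach 535 and 548 CPM of Cox6a2 at 16.5 and 84.0 CPM of Siglech, and pDC of the 3 libraries lie at the upper right.

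Inside pDC, Cox6a2 was also highest at low glutamine, at 942 CPM (interval 929 to 956), against 548 CPM (538 to 558) with DON and 597 CPM (586 to 608) in control. The log2 ratios were 0.65 and -0.12, and that at low glutamine was under 1.5-fold with a stricter gate (0.53), median-of-ratios scaling (0.48), a mean over cells (0.53) and Leiden clusters (0.31). At low glutamine Cox6a2 ranked 563rd from the top of 9359 genes in pDC, far below its rank in progenitors. A UMI was found in 60.1%, 41.3% and 43.9% of thinned pDC. In pDC below the cell cycle gate the ratio at low glutamine was 0.38, under 1.5-fold, and in those at or above it 0.87. A group of pDC led by Cd7, Apod and Klf4 had little Cox6a2 outside low glutamine, with 291 CPM at low glutamine, 70.1 CPM with DON and 56.9 CPM in control. Genes whose levels over 33 points (11 classes in 3 libraries) were most like that of Cox6a2 were Runx2 (r = 0.805), Gria3 (0.772), Sik1 (0.759) and Bzw1 (0.759), and Runx2 is itself a pDC gate gene. In progenitors Runx2 was at 82.8, 94.1 and 85.7 CPM, with low glutamine the lowest of the 3.

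In every library, pDC with a Cox6a2 UMI more often had a UMI of Ly6d, and also of Siglech, Ccr9, Pacsin1 and Atp1b1. Ccr9 was found in 31.0%, 60.7% and 68.5% of pDC with Cox6a2 at low glutamine, with DON and in control. Without Cox6a2 its shares were 22.9%, 39.8% and 44.6%. Of pDC with a Cox6a2 UMI, 82.4% had a Ly6d UMI at low glutamine, 89.2% with DON and 91.9% in control, and of pDC without one 51.7%, 53.6% and 56.6%. Ly6c2 ran the other way, at 24.4%, 19.9% and 24.5% of pDC with Cox6a2 and 32.8%, 35.9% and 43.9% of pDC without it. The cells are thinned to equal depth, and the shares describe each library.

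**Figure D4:**
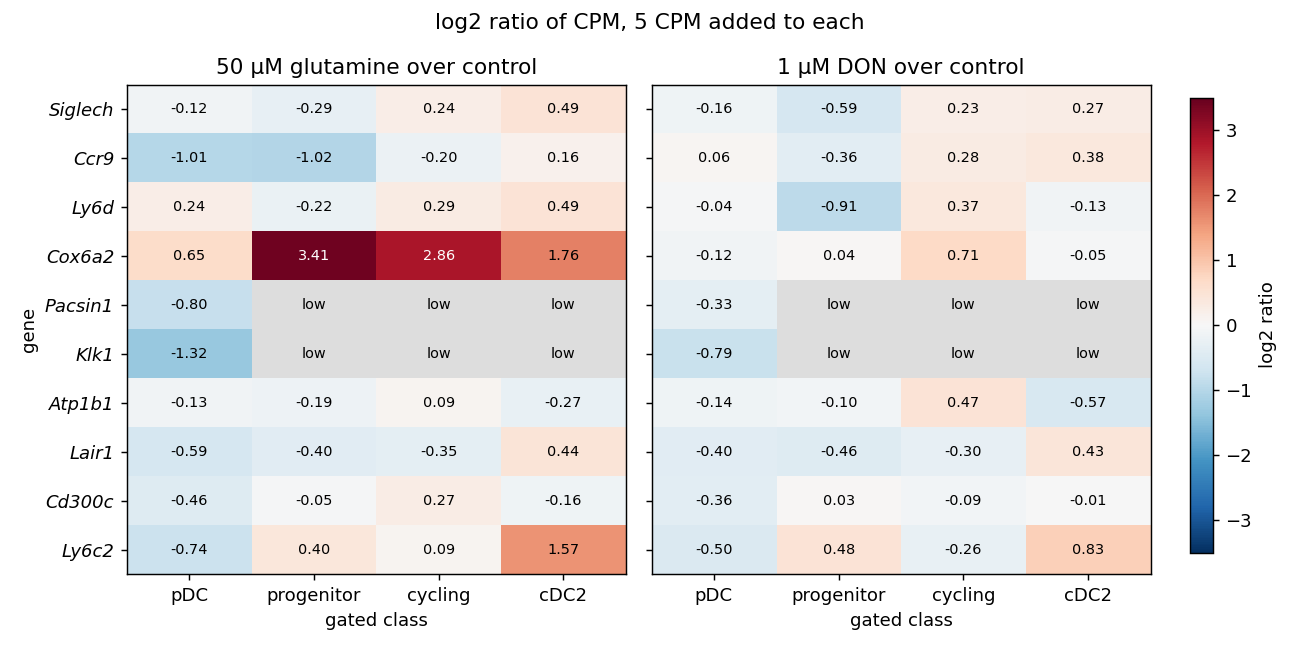
Each cell of the grid gives the log2 ratio to control, with 5 CPM added to each level, of a member (row) in a class (column), for low glutamine (left) and DON (right). Grey cells are members under 5 CPM in both libraries. The highest value is 3.41, for Cox6a2 in progenitors at low glutamine, and the lowest is -1.32, for Klk1 in pDC at low glutamine.

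The counts of members by class follow, beside the share of all measured genes that passed the same 1.5-fold limit, from which nothing is read because the members were chosen with these ratios known. In pDC at low glutamine 1 of 10 was higher (Cox6a2), with 7.65% of all genes, and 5 were lower (Ccr9, Pacsin1, Klk1, Lair1 and Ly6c2), with 2.63%. The median log2 ratio was -0.52 over the members and 0.14 over all genes. Of the 5 lower members, 2 (Klk1 and Ly6c2) were past the limit in pDC below the cell cycle gate and 0 in those at or above it, a subdivision chosen after seeing the data. In pDC with DON none was higher (0.725% of all genes) and Klk1 was lower (0.516%). In progenitors 1 of 8 was higher (2.41%) and Ccr9 was lower (1.17%) at low glutamine, and with DON none was higher (0.432%) and Siglech and Ly6d were lower (0.543%). Neither of these DON calls was made in progenitor-type Leiden clusters. There the ratio of Siglech was 0.1, and that of Ly6d was 0.73, past the limit in the other direction. In cycling cells Cox6a2 was higher both at low glutamine (2.18%) and with DON (0.1%), and none was lower (2.88% and 0.156%). In cDC2, Cox6a2 and Ly6c2 were higher at low glutamine (5.86%) and Ly6c2 with DON (0.662%), and none was lower (1.43% and 0.287%).

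Among the surface receptors, Siglech, which encodes the endocytic lectin that defines mouse pDC, stayed under the 1.5-fold limit in pDC. It was at 1122 CPM at low glutamine, 1093 CPM with DON and 1221 CPM in control, log2 ratios of -0.12 and -0.16. A UMI was found in 78.5%, 77.3% and 80.4% of thinned pDC. Within the 6 clusters that held most pDC, however, Siglech was higher at low glutamine in each, by log2 ratios of 0.37 to 0.88. The clusters with high Siglech made up less of the class: the 2 led by Ccr9 and Pacsin1 held 17.3% and 16.6% of pDC at low glutamine, 24.0% and 25.4% with DON, and 36.3% and 26.5% in control. In the first of these Siglech was at 2925, 2417 and 2217 CPM. Clusters were built from all variable genes, the members included, so these values are a description.

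Outside pDC, Siglech was at 16.5, 12.4 and 21.2 CPM in progenitors at low glutamine, with DON and in control. Its thinned share in low-glutamine progenitors, 3.78%, was no higher than the 3.88% of cDC1, and with DON the shares were 0.855% and 0.882%. Siglech was at 23.0, 12.9 and 10.8 CPM in cDC1. In control the progenitor interval (17.1 to 26.1 CPM) lay above that of cDC1 (9.19 to 12.7 CPM). Whether the progenitor values are background RNA was not tested. Cycling cells had 84.0, 83.2 and 70.4 CPM and thinned shares of 15.2%, 13.3% and 12.5%, against 3.88%, 0.882% and 2.48% in cDC1. In those cells the summed pDC marker list stood at 739, 730 and 655 CPM, with all 11 markers detected, and the part of pDC precursors in these values was not tested. In cDC2 it was at 51.3, 43.3 and 35.2 CPM. Siglech was most like Lifr over the 33 points (r = 0.943), followed by P2ry13 (0.894), Tubgcp5 (0.889) and Ddr1 (0.869).

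Ccr9, the receptor for the gut and thymus chemokine CCL25, had the lowest low-glutamine ratio among the members above 20 CPM in pDC. It was at 388 CPM in low-glutamine pDC (interval 380 to 397), 826 CPM with DON (815 to 838) and 790 CPM in control (777 to 803). The low-glutamine level was 2.03 times lower than control (1.98 to 2.09). A UMI was found in 27.7%, 48.4% and 55.1% of thinned pDC. More pDC were cycling at low glutamine (37.1%, against 21.6% with DON and 13.1% in control), and cycling pDC had little Ccr9, at 106, 218 and 140 CPM. Among pDC below the cell cycle gate Ccr9 was at 677, 1115 and 954 CPM, a low-glutamine log2 ratio of -0.49 in place of -1.01. By cluster the ratio turned: in the cluster led by Ccr9, Cmah and Siglech it was 0.40 (2261, 2792 and 1707 CPM), and in the cluster led by Pacsin1 and Pltp it was -0.81 (485, 1016 and 852 CPM). With the class defined by Leiden clusters the ratio was 0.05. The part of the makeup of the class in the difference was not tested beyond these values.

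Outside pDC, Ccr9 was scarce in progenitors, cycling cells and cDC2, but not in every small class. T, NK and innate lymphoid cells had 133, 31.3 and 78.1 CPM at low glutamine, with DON and in control, from 26, 12 and 31 UMIs. Basophils and mast cells had 6.17, 182 and 6.49 CPM, from 1, 35 and 2 UMIs. Ccr9 was at 3.93, 9.12 and 13.1 CPM in progenitors, from 59, 44 and 55 UMIs. Its thinned shares there (1.03%, 2.56% and 4.07%) lay below the 5.43%, 3.17% and 4.21% of cDC1. However, cDC1 had 26.3, 20.5 and 19.4 CPM of Ccr9, above the 9.68, 12.1 and 8.13 CPM of cDC2. Whether the progenitor value is expression was not tested. Over the 33 points Ccr9 was most like Atp1b3 (r = 0.845), Atp2a1 (0.83), Sh3bgr (0.8) and Tspyl4 (0.792), and Atp1b3 was at 538, 865 and 846 CPM in pDC.

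Lair1, an inhibitory collagen receptor, was at 247 CPM in low-glutamine pDC, 283 CPM with DON and 374 CPM in control. The log2 ratios were -0.59, just past the 1.5-fold limit, and -0.40. In pDC below the cell cycle gate the levels were 371, 360 and 436 CPM, a low-glutamine ratio of -0.23, and with the class defined by Leiden clusters it was 0.11. Cd300c, a receptor of the CD300 family of lipid-binding immune receptors, was at 86.7, 93.0 and 121 CPM, ratios of -0.46 and -0.36, both under the limit. Lair1 and Cd300c were at 6.43 to 10.8 CPM in progenitors of the 3 libraries, and Cd300c was at 31.1, 23.0 and 24.8 CPM in cycling cells.

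Ly6d, a GPI-anchored surface protein, was the member with most UMIs in pDC, at 2897 CPM at low glutamine, 2373 CPM with DON and 2448 CPM in control. The log2 ratios were 0.24 and -0.04. Cycling pDC had at least as much as the others, with 3127, 2738 and 2606 CPM, against 2662, 2200 and 2408 CPM below the cell cycle gate. The group led by Cd7, Apod and Klf4 was low, at 380, 345 and 284 CPM. Cells of the B lineage carried it at 1841, 2344 and 2404 CPM, so Ly6d was not limited to pDC. Progenitors had 66.0, 39.0 and 77.8 CPM, log2 ratios of -0.22 and -0.91, and thinned shares of 6.06%, 5.56% and 6.10%. The DON ratio was 0.73 in Leiden clusters, so its direction turned with the definition of the class. Without cells carrying a pDC gate UMI the ratio was 3.32, but this kept only 4 progenitors with DON and 4 in control, too few to give a direction. Cycling cells had 226, 238 and 183 CPM. Over the 33 points Ly6d was most like Lynx1 (r = 0.951), another gene of the same protein fold family, then Abhd17b (0.853), Cyb561a3 (0.836) and Havcr1 (0.835).

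Ly6c2, which encodes a form of the Ly6C antigen, was the member with the highest level in progenitors, cycling cells and cDC2 of the control library, and its direction differed between classes. In cDC2 it was at 629 CPM at low glutamine (interval 613 to 645), 376 CPM with DON (361 to 390) and 209 CPM in control (200 to 219). The 3 intervals are apart, and the log2 ratios were 1.57 and 0.83. In pDC it was at 321 CPM (314 to 329), 381 CPM (372 to 389) and 542 CPM (531 to 552), ratios of -0.74 and -0.50. A UMI was found in 36.2%, 25.0% and 18.7% of thinned cDC2 and in 27.7%, 29.3% and 35.4% of thinned pDC, against 5.81%, 3.53% and 4.81% of cDC1.

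In cDC2 a cluster led by Clec4n, Ccl9 and Lyz2, which also carries F13a1 and C1qb of the monocyte and macrophage list, held 17.9%, 14.9% and 9.32% of the class, and its Ly6c2 was at 1797, 1368 and 1003 CPM. In the main cDC2 cluster, led by Cd209a, Ly6c2 was at 233, 153 and 118 CPM, a low-glutamine ratio of 0.95. The summed monocyte and macrophage list was at 240, 175 and 156 CPM in cDC2, and the neutrophil list at 214, 160 and 97.2 CPM, with every gene of both lists detected in each library. Their part in the Ly6c2 difference was not tested. Neutrophils had 1129, 1454 and 1270 CPM of Ly6c2. In pDC the lower level lay mainly in the clusters led by Ccr9 (205, 242 and 372 CPM) and by Pacsin1 (339, 673 and 873 CPM), and in pDC at or above the cell cycle gate the ratio at low glutamine was -0.09. Progenitors had 283, 299 and 214 CPM, ratios of 0.40 and 0.48. Ly6c2 counts are uncertain, since 20.6% of the 50-base windows at its 3' end also occur in other genes, mainly Ly6c1, whose coding sequence is 93.8% identical. Ly6c1 itself was counted at 0.586 CPM or less in the 4 classes.

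Pacsin1, a membrane-bending protein of endocytosis, was at 94.6 CPM in low-glutamine pDC, 133 CPM with DON and 168 CPM in control, log2 ratios of -0.80 and -0.33. Below the cell cycle gate it was at 145, 168 and 197 CPM, and the low-glutamine ratio was then -0.43. In progenitors, cycling cells and cDC2 it was at 1.07 to 3.93 CPM, under the 5 CPM limit in each of them.

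Klk1, a secreted serine protease of the kallikrein family, was the scarcest member. It had 83, 179 and 315 UMIs in pDC at low glutamine, with DON and in control, or 4.04 CPM (interval 3.22 to 5.01), 8.06 CPM (6.93 to 9.34) and 17.6 CPM (15.7 to 19.7). The intervals are apart, and the log2 ratios were -1.32 and -0.79. Below the cell cycle gate lay 68 of the 83 UMIs at low glutamine, 166 of 179 with DON and 309 of 315 in control, at levels of 6.69, 11.0 and 21.6 CPM. In the cluster led by Ccr9 it was at 23.7, 32.7 and 44.3 CPM. In progenitors it had 0, 0 and 1 UMIs, and its thinned share was 0 of 874 low-glutamine cells. Taking 3 counts as the most that a count of 0 allows, up to 0.343% of such cells could hold a UMI. Of the windows at its 3' end 30.6% also occur in other genes, most often Klk1b5, so its counts are uncertain too.

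Atp1b1, the regulatory subunit of the sodium pump, was at 386, 384 and 424 CPM in pDC, log2 ratios of -0.13 and -0.14. Cycling cells had 41.7, 55.8 and 39.0 CPM, and progenitors 10.1, 11.0 and 12.2 CPM. The other regulatory subunit in use, Atp1b3, had a ratio of -0.65 at low glutamine.

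**Figure D5:**
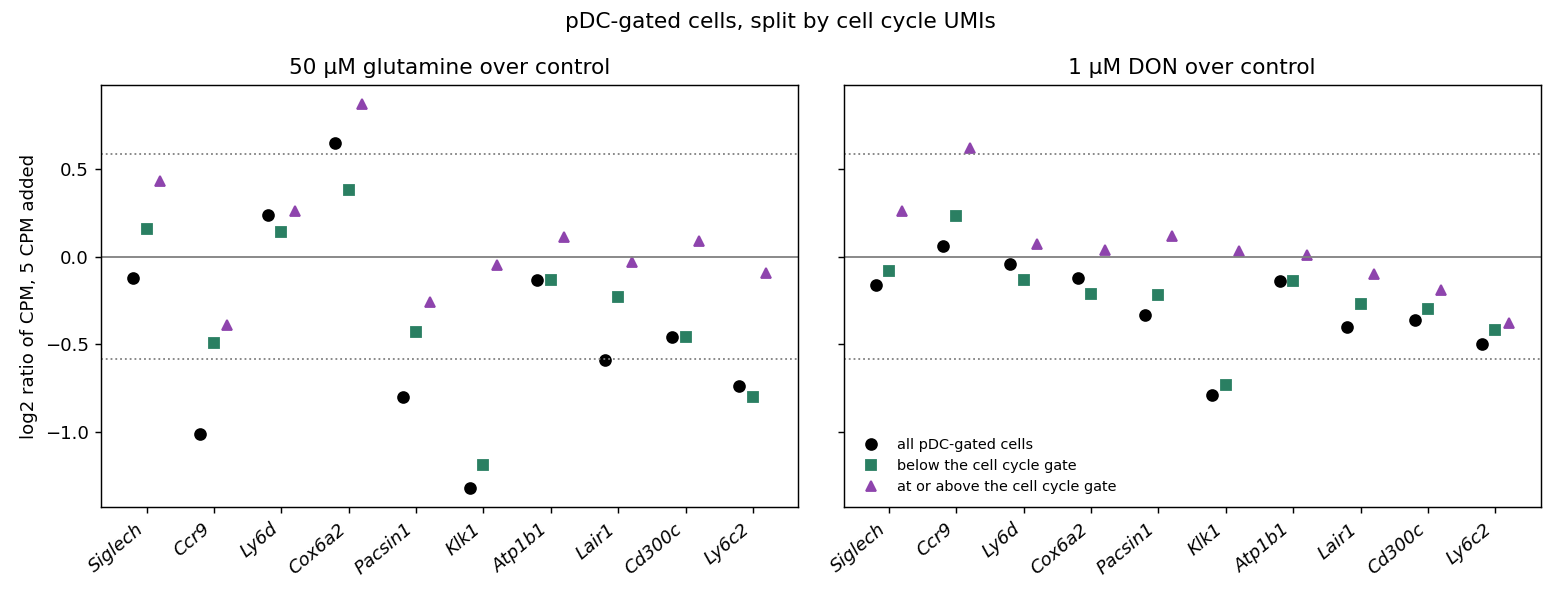
Points give the log2 ratio to control of each member in pDC, with 5 CPM added, over all pDC (circles), those below the cell cycle gate (squares) and those at or above it (triangles), for low glutamine (left) and DON (right). Dotted lines mark 1.5-fold. At low glutamine Ccr9 is at -1.01 over all pDC and at -0.49 and -0.39 in the subdivisions, and Ly6c2 at -0.74, -0.80 and -0.09.

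Genes of the pDC program that are no members were compared in the same cells. These lists too were chosen with earlier results of these data known, so nothing is read from their counts. Of 12 measured pDC markers outside the gate, 7 were at least 1.5-fold lower in low-glutamine pDC and none was higher (median log2 ratio -0.70, against 0.14 over all genes). Of all genes in these cells 2.63% were lower and 7.65% higher at low glutamine, the shares to set beside each list here. Cycling cells made up 37.1% of pDC at low glutamine and 13.1% in control. Below the cell cycle gate 3 of 12 markers were lower (Pltp, Ly6a and Fcrla), with 1.73% of all genes, and at or above it 4 of 11 were (those 3 and Pld4), with 1.95%. The lower ones were Fcrla (12.8 CPM at low glutamine and 53.7 CPM in control), Ly6a (730 and 2088 CPM), Pltp (120 and 249 CPM), Pld4, Rnase6, Cd7 and the antiviral tetherin gene Bst2 (1885 and 3004 CPM). Of the 8 transcription factors listed, 1 was lower, Irf7 (75.6 and 144 CPM), which drives interferon transcription, and Tcf4 was at 1598 and 1630 CPM, although Tcf4 is part of the gate. In the endosomal Toll-like receptor list 2 of 14 were lower, Irf7 and the lysosomal nuclease gene Pld4 (202 and 386 CPM). Of the 6 signalling partners of Siglec-H and LAIR-1, Tyrobp was lower, at 2659 CPM at low glutamine, 4615 CPM with DON and 4937 CPM in control. Irf7 and Tyrobp were lower both below the gate and at or above it, and Pld4 at or above it, in a subdivision made after seeing the data. With DON none of these 4 lists had a member past 1.5-fold in pDC, where only 0.725% of all genes were higher and 0.516% lower.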

How the data were processed

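The authors deposited filtered tables of UMI counts per gene and cell barcode (10x 3' v3). Cell Ranger 6.0.0 is given per the file headers, but version 3.1.0, with mm10, per the submitters' processing notes, so the version that made these counts is uncertain. Libraries were mapped to conditions from the labels.

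Cells with at least 1000 UMIs, 500 genes and at most 10% mitochondrial UMIs were kept. Doublets scored against 2 simulated doublets per cell were removed (3.82% at low glutamine, 4.51% with DON and 8.46% in control), leaving 9280, 8486 and 9490 cells. Gates used marker UMIs per 10000 UMIs in a cell, with at least 3 markers (2 for cDC2 and cDC1): 18 for pDC, 8 for progenitors, 4 for cDC2 and cDC1, and 20 cell cycle UMIs for cells in no other gate. A cell past more than 1 gate needed a relative score 2 times that of the next. The thresholds were set after seeing the data. Leiden clusters (2000 variable genes, 30 components, 20 neighbours, resolution 1) were used for subdivisions and as an alternative. Counts were summed per class and library. Ratios were log2 after adding 5 CPM, a member was measured at 5 CPM or more in either library, and the limit was 1.5-fold. Shares came from cells thinned to 2000 UMIs. With 1 library per condition the design allows no test.

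Members and lists were chosen with earlier results of these data known. Named genes were the members, the 4 genes with the most similar levels to Cox6a2, Siglech, Ccr9 and Ly6d, the genes past the limit or of largest ratio in each list, and fixed partners. Atf5, Asns, Cth, Slc7a5 and Pf4 were named after their values were seen. The summing and ratio steps were tested on simulated data. Alternatives covered doublets, gates, clusters, scaling, pseudocount, cell filter and thinning depth. Tools were Python 3.11.15, numpy 2.4.6, scipy 1.17.1, pandas 2.3.3, scikit-learn 1.9.0, scikit-image 0.26.0, leidenalg 0.10.2 and matplotlib 3.10.9. Annotation was GENCODE on GRCm38, which held 99.8% of the gene IDs.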

Additional observations from a re-analysis of the deposited data

Results flagged for a closer look

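Ly6c2 at low glutamine differed in direction between classes, with a log2 ratio to control of 1.57 in cDC2 and -0.74 in pDC. With 1 library per condition this difference was not tested.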

How the results depend on the processing

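No paired analysis was possible because each condition has 1 library, and for the same reason no replicate could be left out. The log2 ratio of Cox6a2 in progenitors at low glutamine, 3.41, ranged over 1.21 to 3.8 in 12 alternatives: it was 3.8 with a stricter gate, 2.88 in Leiden clusters and 1.21 when cells with a pDC gate UMI were left out, which kept 21, 4 and 4 progenitors at low glutamine, with DON and in control. Over all members, 541 ratios stayed inside their counting interval, which is wide where UMIs are few, and 232 left it. Another 7 ratios, past the 1.5-fold limit in the main setting, did not keep their direction. Of the counts of members, 138 stayed equal or within 1.5-fold and 46 moved. Thinning to 4000 UMIs moved 92 of 120 shares. Counts below are of members at least 1.5-fold away from control, and the causes of the changes were not tested. In Leiden clusters, the low-glutamine ratio in pDC was 0.05 for Ccr9 and 0.11 for Lair1, and the DON ratio in progenitors was 0.73 for Ly6d and 0.1 for Siglech. There, low glutamine had 0 higher and 2 lower members in pDC, 3 higher and 0 lower in progenitors and 4 higher in cycling cells, and DON had 1 higher and 0 lower in progenitors and 0 higher in cDC2. With cells carrying a pDC gate UMI left out (not run for pDC), the ratio of Ccr9 at low glutamine was 0 and that of Ly6d with DON 3.32 in progenitors. Low glutamine then had 5 higher and 2 lower in progenitors, 2 higher and 1 lower in cycling cells and 1 lower in cDC2, and DON had 4 higher in progenitors, 2 higher and 3 lower in cycling cells and 2 higher and 1 lower in cDC2. With doublets kept, low glutamine had 0 lower in progenitors and 2 lower in cDC2, and DON had 4 lower in progenitors and 2 lower in cDC2. A stricter gate gave 0 higher in pDC and 1 lower in cDC2 at low glutamine, and with DON 1 higher in progenitors, 0 higher in cycling cells and 1 lower in cDC2. A looser gate and a stricter cell filter each gave 1 lower in progenitors with DON. The mean over cells gave 0 higher in pDC and 3 lower in progenitors at low glutamine and 1 lower in cDC2 with DON. Median-of-ratios scaling gave 0 higher in pDC at low glutamine and 1 lower in cDC2 with DON, as a pseudocount of 1 also did for cDC2. Alternatives on the cell cycle and on 1 cDC2 cluster were chosen after seeing the data. Below the cell cycle gate, low glutamine had 0 higher and 2 lower in pDC, 5 lower in progenitors and 4 higher in cDC2, and DON had 1 higher in progenitors. At or above it, the ratio of Klk1 in pDC with DON was 0.03, low glutamine had 0 lower in pDC, and DON had 1 higher and 0 lower in pDC, 1 lower in progenitors and 2 lower in cDC2. Without the cDC2 cluster led by Clec4n, low glutamine had 4 higher in cDC2. Klk1, Pacsin1 and, outside pDC, Ccr9 and Lair1 rest on few UMIs.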
